A study of Homo sapiens with 6 samples.

Results

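Among the genes of the proteasome in HMCB melanoma cells, the messenger RNA of NFE2L1, a transcription factor of these genes, rose to 248% of the control level after an siRNA against AHCYL1. The RNAs of the catalytic subunits PSMB6, PSMB7 and PSMB5 fell to 45.9%, 75.1% and 83.8%. The set holds 48 genes of the 26902 in the deposited table. They were taken by name: all PSMA, PSMB, PSMC, PSMD, PSME, PSMF and PSMG genes with POMP and NFE2L1, leaving out the inducible subunits PSMB8 and PSMB9. The naming rule uses no measured value, though the set was picked with earlier results of these data known.

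The cells are HMCB, an established human melanoma line labelled as carrying Nras Q61K, and all libraries share that line and genotype. A control siRNA (siNC, 3 libraries) was compared with an siRNA against AHCYL1 (siAHCYL1, 3 libraries), 3 days after transfection. The series asks why and how AHCYL1 supports proliferation of NRAS-mutant melanoma cells. Values are TPM, a share-based unit that corrects for transcript length but keeps no sequencing depth, so the depth behind each value is unknown. No label ties the biological replicates to cultures of their own, so a p-value here reflects how far these libraries scatter, and some of that scatter may be technical.

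The proteasome degrades proteins that carry ubiquitin chains. Its barrel, the 20S core, stacks rings of alpha subunits, which form the gate, on rings of beta subunits, of which PSMB5, PSMB6 and PSMB7 hold the proteolytic sites. The 19S cap sits on the core and has a base, whose ring of ATPases (PSMC genes) unfolds substrates, and a lid (most PSMD genes), which removes ubiquitin. Dedicated chaperones assemble core and cap, other activators can replace the cap, and NFE2L1, also called NRF1, is known to raise transcription of the subunit genes when the proteasome is inhibited. NFE2L1 is made in the membrane of the endoplasmic reticulum (ER), extracted from it and cut before it enters the nucleus, so its RNA level is not a measure of its activity.

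AHCYL1 itself was at 131 to 150.02 TPM in the control libraries and at 10.97 to 13.45 TPM after its siRNA, 8.56% of control (limma adjusted p = 5.64e-08, exact permutation p = 0.1, the smallest that 3 against 3 allows). Melanocytic markers were mixed: SOX10 stood at 993 to 1050 TPM, while TYR was listed at 0 in all 6 libraries, MLANA did not exceed 0.79 TPM and PMEL did not exceed 1.94 TPM. Of the 6 tested genes of this list of 8, 3 rose and 1 fell: DCT fell from 11.4 to 0.34 TPM, while S100B rose from 10.7 to 28.98 TPM, TYRP1 from 1.59 to 3.76 TPM and PMEL from 0.88 to 1.83 TPM (limma adjusted p at most 0.0484). The list summed to 1061 to 1085 TPM in siNC and 1036 to 1078 TPM in siAHCYL1, mostly SOX10. Of markers of other cell types, CD3E, HBB, VWF, CDH1, KRT5 and PDGFRA were listed at 0. The summed TPM of 6 fibroblast markers was 15.4 to 17.9 in siNC and 26.1 to 32.4 in siAHCYL1, mostly LUM. COL1A1 of that list fell from 2.18 to 0.49 TPM. That of 5 endothelial markers was 56.6 to 70.9 and 34.3 to 38.5, mostly EGFL7. The 8 immune and blood cell markers summed to 14.9 to 28.8 and 11.7 to 18.1. Among them HBA1 fell from 18.0 to 6.35 TPM and PTPRC, the general leukocyte marker, rose from 3.45 to 8.55 TPM. The 6 epithelial ones summed to 17.4 to 21.6 and 17.4 to 17.8, with KRT8 higher (0.87 to 2.41 TPM) and KRT18 lower (17.5 to 14.3 TPM). The part of these differences in the proteasome results was not tested. In bulk RNA, a lower value can mean fewer cells with a transcript or less of it per cell, and these cannot be told apart.

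Of the 48 genes, 46 reached 1 TPM in at least 3 libraries and were tested. PSMA8, the alpha subunit of the testis, was listed at 0 in every library. PSMB11, the beta subunit of the thymus, was listed at 0.20 TPM in siNC replicate 1 and at 0 in the others. Of the 46 tested genes, 19 changed at an adjusted p under 0.05 (limma on log2(TPM + 1), Benjamini-Hochberg over 13266 genes), 9 higher and 10 lower. Over all genes tested, 51.6% changed, 30.4% higher and 21.2% lower. These shares are also the background for the counts by role and by list below. The median log2 fold change of the 46 was 0.03, against 0.06 over all genes. The groups did not overlap in 23 of the 46, against 59.2% of all genes, and 2 of the 46 changed at least 2-fold, against 8.36%. Median-of-ratios scaling gave 6 higher and 16 lower, and quantile normalization gave 7 higher and 18 lower. Without siNC replicate 2 the count was 12 (5 higher and 7 lower), and without siNC replicate 3 it was 15 (5 higher and 10 lower). Without replicate 1 of both groups it was 22 (10 higher and 12 lower). Fits under 15 other settings left 9 genes past the threshold in each: NFE2L1, PSMG3 and PSMG4 higher, and PSMB6, PSMB7, PSMB5, PSMB3, PSMA2 and POMP lower.

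**Figure D1:**
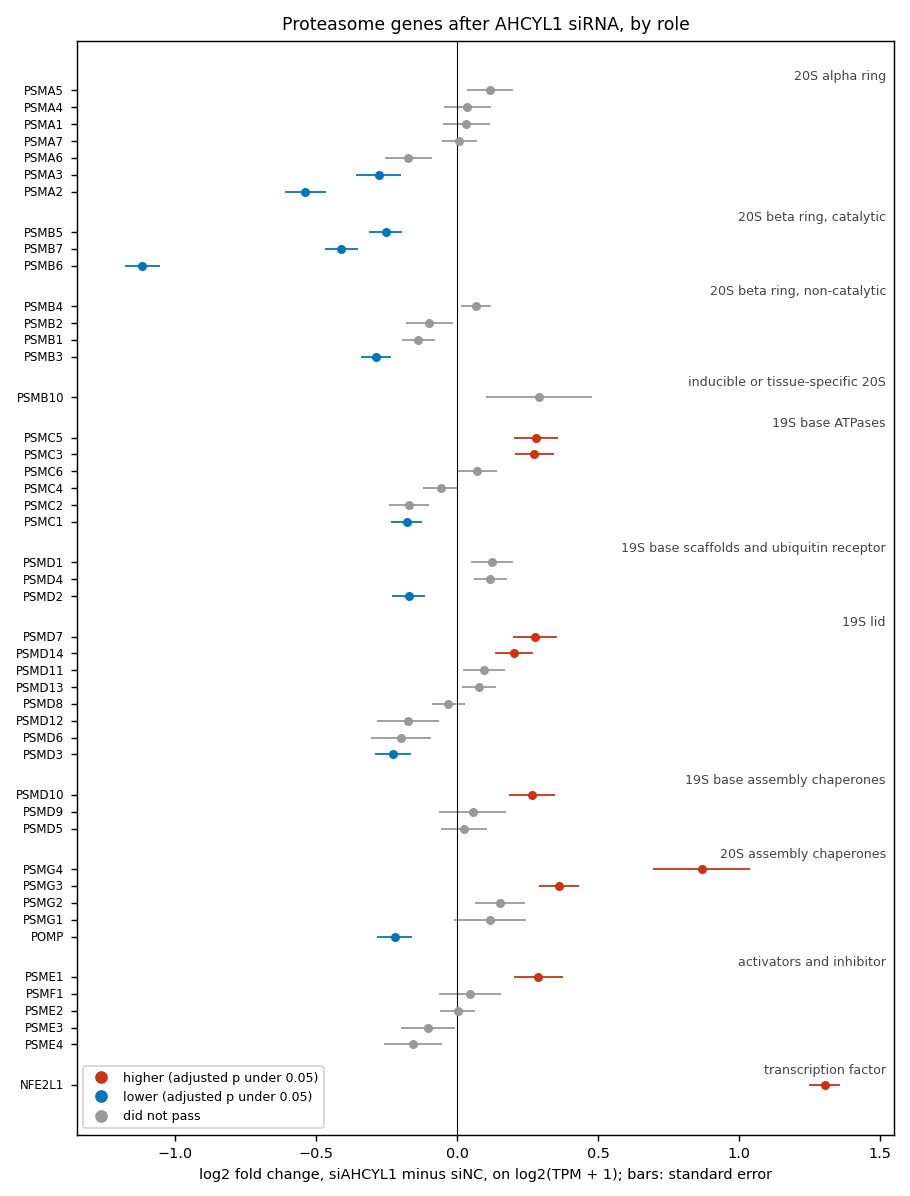
Log2 fold change (siAHCYL1 minus siNC, on the log2(TPM + 1) scale, x axis) of the 46 tested proteasome genes, grouped by role, with standard errors as bars. NFE2L1 (1.30) and PSMB6 (-1.12) lie outermost, all 3 catalytic beta subunits are lower, and the 27 genes that did not pass lie between -0.20 and 0.29.

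NFE2L1 had the largest rise of the set. It was at 89.87, 88.12 and 87.5 TPM in siNC and at 221.8, 222.81 and 214.55 TPM in siAHCYL1, means of 88.5 ± 1.23 and 219.7 ± 4.51 TPM (SD, n = 3). Each siAHCYL1 library stood far above each control library, and the spread within a group was small. On the log2 scale it rose by 1.30 (SE 0.056, limma adjusted p = 5.03e-07), and 30 of the 13266 genes had a lower adjusted p. The gene lies on chromosome 17, positions 48048329 to 48061487, plus strand (GRCh38, GENCODE v29). Across the 15 other settings its log2 fold change stayed between 1.22 and 1.32.

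All 3 catalytic beta subunits fell. PSMB6, the subunit with caspase-like activity, was at 189.73, 188.69 and 185.93 TPM in siNC and at 81.65, 86.77 and 90.42 TPM in siAHCYL1, a mean of 188 ± 1.96 against 86.3 ± 4.41 TPM (SD, n = 3). On the log2 scale this is a change of -1.12 (SE 0.062, limma adjusted p = 1.68e-06), the largest fall of the set. PSMB7, the subunit with trypsin-like activity, was at 344.8, 324.37 and 346.52 TPM against 242.74, 257.49 and 262.77 TPM (log2 fold change -0.41, SE 0.06, limma adjusted p = 0.000406). Its siAHCYL1 libraries all lay below the lowest control library. PSMB5, the subunit with chymotrypsin-like activity and the main site bound by bortezomib, was at 284.9, 277.01 and 301.28 TPM against 235.57, 246.33 and 241.15 TPM (-0.25, SE 0.058, limma adjusted p = 0.00533). The groups did not overlap for PSMB5 either. Summed over the 3 genes, siNC libraries held 790.1 to 834 TPM and siAHCYL1 libraries 559.96 to 594 TPM.

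**Figure D2:**
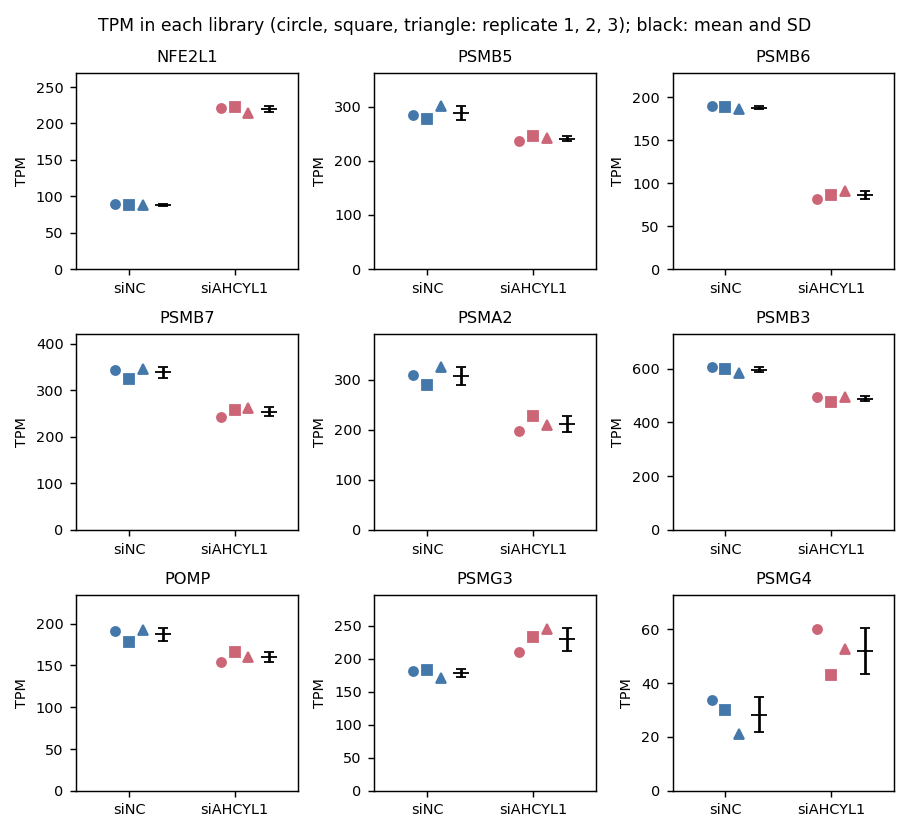
TPM (y axes, from 0) in each library for the 9 proteasome genes that passed the threshold in every fit; circles, squares and triangles are replicates 1, 2 and 3, and black marks are the mean and SD over 3 libraries. NFE2L1, PSMG3 and PSMG4 are higher in all 3 siAHCYL1 libraries than in any siNC library, and the other 6 genes are lower.

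The RNA of PSMB6 carries in its 3′ UTR a sequence that was linked to lower fold changes in an earlier analysis of these same data, and its site is shown for that reason. The 8 bases, in capitals, start at base 15 of an 81-base 3′ UTR (GENCODE v29 transcript ENST00000270586.7, GRCh38, chr17:4798426-4798455, plus strand). The site of PSMD9, an assembly chaperone, holds only the first 7 of these bases (ENST00000541212.5, chr12:121917878-121917907, plus strand).
PSMB6: ctgggattctaGTATGCAAtaagagatgcc
PSMD9: tattttaagatGTATGCAtattaatcaatt
With 1 principal transcript searched per gene, 255 tested genes carried GTATGCAA in the 3′ UTR, and 49.4% of them fell while 14.1% rose (median log2 fold change -0.30). Of 10080 genes with neither GTATGCA nor TATGCAA, 20.5% fell and 31.4% rose (median 0.07). The 8-mer was taken from these same data, so the lower values of its carriers are no independent support. Carriers and other genes were not matched for 3′ UTR length. PSMB6 lay in the lower tail of the carriers, with 37 of the 255, itself included, at or below its value of -1.12. In the chosen transcripts PSMB6 and PSMD9 were the only tested members with GTATGCA, and PSMD9 did not pass (log2 fold change 0.05, limma adjusted p = 0.73). Other annotated isoforms of PSMB5 and PSME3 also carry it, and the chosen transcript of PSME3 had no 3′ UTR bases to search (length 0). The chosen 3′ UTR of PSMA5 holds TATGCAA without GTATGCA, and PSMA5 did not pass (log2 fold change 0.12, limma adjusted p = 0.261). The chosen 3′ UTRs of PSMB7, PSMA2, PSMB3, POMP and NFE2L1 hold none of the 7-mers searched. The siRNA sequences were not analysed here, and the part of this site in the fall of PSMB6 was not tested.

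**Figure D3:**
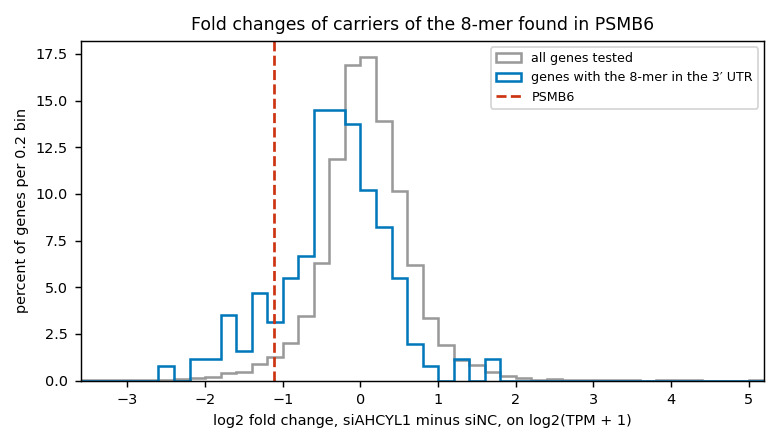
Distribution of log2 fold changes (x axis, siAHCYL1 minus siNC on log2(TPM + 1); y axis, percent of genes per bin) over all 13266 genes tested and over the 255 genes whose 3′ UTR carries the 8-mer of PSMB6. The carriers, which include PSMB6, lie lower (median -0.30 against 0.06), and the dashed line marks PSMB6 at -1.12. The 8-mer was taken from these same data, so this shift is no independent support.

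Of the 4 constitutive beta subunits without a proteolytic site, 1 fell and 3 did not pass. PSMB3 fell from 606.04, 598.5 and 585.37 TPM to 495.28, 477.19 and 493.38 TPM (log2 fold change -0.29, SE 0.052, limma adjusted p = 0.00153), with no overlap between the groups. PSMB1 was at 468 ± 19.3 against 425 ± 10.9 TPM (SD, n = 3) and did not pass (-0.14, limma adjusted p = 0.0688), although its groups did not overlap. It passed under 6 of the 15 other settings. PSMB4 (0.07) and PSMB2 (-0.10) did not pass. PSMB10, the inducible catalytic subunit that takes the place of PSMB7 in immunoproteasomes, varied most between libraries, with 21.15, 31.84 and 36.7 TPM in siNC and 30.7, 42.78 and 35.06 TPM in siAHCYL1. Its groups overlapped and it did not pass in any fit (log2 fold change 0.29, SE 0.19, limma adjusted p = 0.226).

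In the alpha ring, 2 of 7 genes fell and 0 rose. PSMA2 was at 309.77, 288.64 and 324.47 TPM in siNC and at 197.22, 228.03 and 209.17 TPM in siAHCYL1 (log2 fold change -0.54, SE 0.073, limma adjusted p = 0.000267). The groups lay well apart. PSMA2, at chromosome 7, positions 42916857 to 42932223, minus strand, shares exonic sequence with MRPL32 on the other strand, a mitochondrial ribosomal protein gene that also fell (238 ± 11.9 to 150.3 ± 6.74 TPM, SD, n = 3). The libraries keep no strand, so reads from the shared bases cannot be told apart. PSMA3 went from 304.59, 277.16 and 270.7 TPM to 258.49, 217.03 and 227.54 TPM (-0.28, SE 0.079, limma adjusted p = 0.0154), and lost its call without siAHCYL1 replicate 2 (adjusted p = 0.0684). PSMA1, PSMA4, PSMA5, PSMA6 and PSMA7 did not pass, with log2 fold changes from -0.17 (PSMA6) to 0.12 (PSMA5).

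The subunits of the core are present in equal number in the particle, but their RNAs covered a wide range in TPM, which corrects for length. In siNC, PSMB4 was highest (676 to 713 TPM) and PSMA5 lowest (44.4 to 50.7 TPM). PSMB3 came next after PSMB4, and neither overlapped its neighbour in that order. PSMB1 and PSMA7 overlapped each other, and from PSMB7 down through PSMA2, PSMB5, PSMA3 and PSMA4 to PSMA6 each gene overlapped the next. PSMB6 was 11th in siNC, below PSMA6 and overlapping PSMA1. In siAHCYL1 it was 13th, below all libraries of PSMB2 (95.5 to 112.5 TPM) and above all of PSMA5 (47.4 to 53.4 TPM). Set against the median of the 14 genes in the same library, PSMB6 was at 0.64 to 0.68 in siNC and at 0.34 to 0.39 in siAHCYL1. PSMB5 was at 0.95 to 1.05 and 0.99 to 1.04 by the same measure. PSMB5 ranked 7th of the 14 in both groups and is itself part of the median, so it lies close to that median by its rank. The overlap of its ratios is therefore no measure of its change against the other core genes. PSMB7 was at 1.15 to 1.21 against 1.01 to 1.12.

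**Figure D4:**
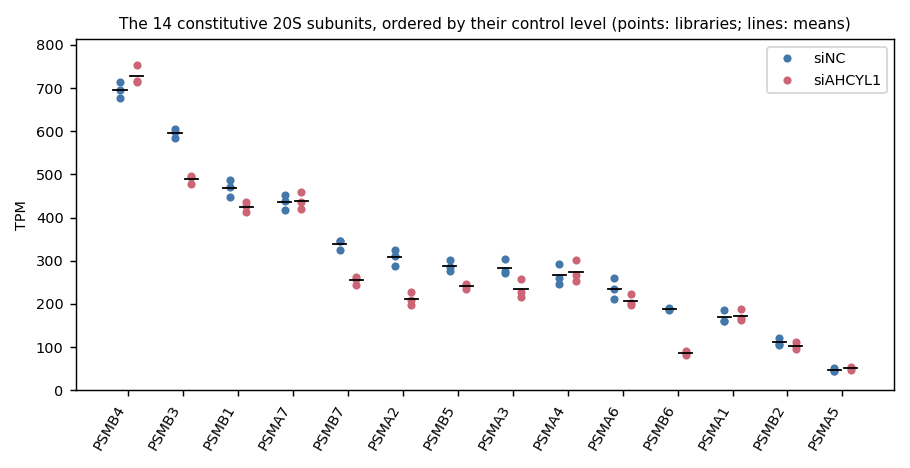
TPM (y axis, from 0) of the 14 constitutive 20S subunit genes in each library, ordered by their mean in siNC; points are libraries and lines are means of 3. PSMB6 moves from 11th to 13th place, and PSMB4 and PSMA5 stay at the ends in both groups.

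In the ATPase ring of the base, 2 of 6 genes rose and 1 fell. PSMC5 went from 214.22, 221.27 and 226.24 TPM to 240.65, 270.83 and 294.66 TPM (log2 fold change 0.28, SE 0.077, limma adjusted p = 0.0138), and lost its call under median-of-ratios scaling (adjusted p = 0.103) and without siAHCYL1 replicate 3 (0.0525). It shares exonic bases with FTSJ3, a ribosome biogenesis gene on the other strand that rose as well (33.8 to 46.7 TPM). Such partners of called genes did not always move alike. NRDE2, opposite PSMC1, rose (0.32, limma adjusted p = 0.0273). EMC9, opposite PSME1 (0.12), and PSMG3-AS1, opposite PSMG3 (0.18), did not pass. PSMC3 went from 198.23, 169.77 and 176.55 TPM to 213.87, 223.95 and 219.31 TPM (0.27, SE 0.07, limma adjusted p = 0.00941). Its call was lost without siNC replicate 2 (adjusted p = 0.0504). PSMC1 was lower, at 262.82, 267.31 and 254.11 TPM against 225.27, 235.58 and 231.35 TPM (-0.18, SE 0.055, limma adjusted p = 0.0222), a call lost under 4 of the 15 other settings. GENCODE names 13 pseudogenes of PSMC1, 4 of PSMA6, 3 each of PSMA2 and PSMD10, and 2 of PSME2. It names 1 each of PSMB3, PSMB7, PSMD4, PSMD7 and PSMD8. How reads were split between these genes and their copies was not tested, and their values are uncertain to that extent. PSMC2 (-0.17), PSMC4 (-0.06) and PSMC6 (0.07) did not pass, and PSMC2 passed under 6 of the 15 other settings.

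Of the scaffold and ubiquitin-binding subunits of the base, PSMD2, the scaffold that docks ubiquitin-carrying proteins and the deubiquitinase USP14, was lower. It had 527.62, 490.58 and 480.42 TPM in siNC and 450.69, 443.44 and 433.74 TPM in siAHCYL1 (log2 fold change -0.17, SE 0.058, limma adjusted p = 0.0315), and its call was lost under 5 of the 15 settings. The ubiquitin receptor PSMD4 (366 ± 4.89 against 397 ± 21.0 TPM) and the scaffold PSMD1 (154 ± 8.47 against 168 ± 13.04 TPM) did not pass.

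Among 8 PSMD genes of the lid, 2 rose and 1 fell. PSMD14, the deubiquitinase that cuts ubiquitin chains off substrates, was at 182.68, 166.09 and 166.22 TPM against 207.09, 186.79 and 198.38 TPM (log2 fold change 0.20, SE 0.067, limma adjusted p = 0.0315). Its partner in the same dimer, PSMD7, was at 172.59, 160.62 and 142.47 TPM against 200.47, 187.98 and 186.2 TPM (0.27, SE 0.078, limma adjusted p = 0.0155). The groups did not overlap for either gene. The call of PSMD14 was lost under 7 of the 15 settings, both other scalings among them, and that of PSMD7 without siNC replicate 3 (adjusted p = 0.0513). PSMD3 fell from 264.53, 280.72 and 288.9 TPM to 223.63, 245.82 and 242.22 TPM (-0.23, SE 0.064, limma adjusted p = 0.0141), and lost its call without siNC replicate 2 (0.0566) or 3 (0.0511). PSMD6, PSMD8, PSMD11, PSMD12 and PSMD13 did not pass (-0.20 to 0.10).

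Sums of core and cap genes are given without a test, and only for genes of the set. For the counts beside them, 30.4% of all genes tested rose and 21.2% fell. The 14 constitutive 20S genes, of which 6 fell and 0 rose, summed to 4526, 4359.7 and 4402 TPM in siNC and to 3974, 3876 and 3893 TPM in siAHCYL1. The 17 genes of the 19S cap in the set, of which 4 rose and 3 fell, summed to 3458, 3299.9 and 3231 TPM and to 3378, 3359.5 and 3356 TPM. The ratio of these sums was 1.31 to 1.36 in siNC and 1.15 to 1.18 in siAHCYL1, with no overlap. The cap sum leaves out the cap subunits ADRM1 and SHFM1, whose names fall outside the rule. SHFM1 was abundant and widely spread, at 694.6, 968.01 and 987.63 TPM in siNC and 481.87, 870.35 and 812.22 TPM in siAHCYL1. The ratio therefore holds for the 17 genes only and is not a value for the whole cap. Leaving PSMB6 out, the core sum in siAHCYL1 was 90.3% of that in siNC, against 88.4% with it.

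**Figure D5:**
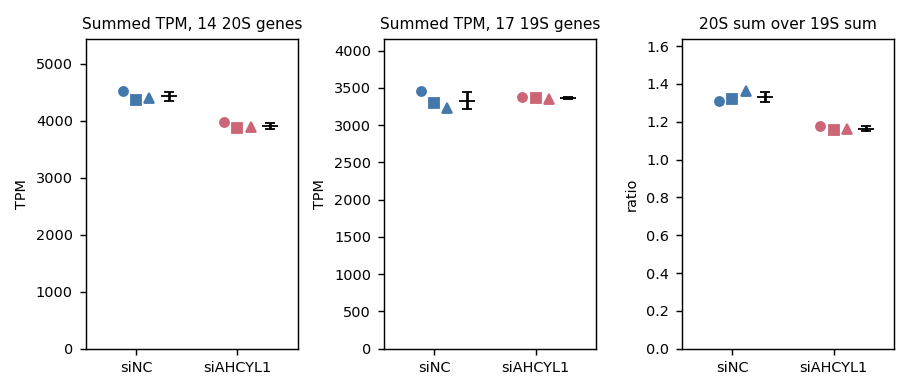
Summed TPM of the 14 constitutive 20S genes and of the 17 genes of the 19S cap, and the ratio of these sums (y axes, from 0), in each library; symbols are replicates 1, 2 and 3 and black marks are the mean and SD. The 20S sums and the ratio do not overlap between groups, and the 19S sums do. The cap subunits ADRM1 and SHFM1 are outside the set and not in these sums.

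Assembly chaperones of the core went both ways. POMP, which drives joining of the half-barrels and is then degraded, fell from 190.94, 178.31 and 192.99 TPM to 154.52, 166.63 and 160.39 TPM (log2 fold change -0.22, SE 0.062, limma adjusted p = 0.0141). PSMG3, which pairs with PSMG4 to help build the alpha ring, rose from 181.27, 182.62 and 171.05 TPM to 210.59, 233.32 and 244.7 TPM (0.36, SE 0.07, limma adjusted p = 0.00225). PSMG4 rose from 33.85, 29.94 and 21.15 TPM to 60.3, 43.0 and 52.61 TPM (0.87, SE 0.17, limma adjusted p = 0.00249). Both partners were higher in every siAHCYL1 library than in any control, and the control libraries of PSMG4 were widely spread. PSMG4, at chromosome 6, positions 3231403 to 3303373, plus strand, shares exonic bases with SLC22A23 and TUBB2B on the other strand in GENCODE v29. RefSeq gives PSMG4 a shorter span, 3254404 to 3268049, and the length of the shared bases is not given here. TUBB2B, a tubulin gene, rose from 407 ± 13.4 to 625 ± 2.87 TPM (SD, n = 3), and SLC22A23 did not pass (-0.00, limma adjusted p = 0.968). The part of TUBB2B reads in the value of PSMG4 was not tested. The other pair of this step, PSMG1 (0.12) and PSMG2 (0.15), did not pass.

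Of the chaperones of the 19S base, PSMD10, also called gankyrin, rose from 81.34, 67.48 and 69.53 TPM to 89.16, 89.23 and 83.7 TPM (log2 fold change 0.26, SE 0.083, limma adjusted p = 0.0235). Its call was lost under 7 of the 15 settings. PSMD5 (0.02) and PSMD9 (0.05) did not pass. PAAF1, the other chaperone of this step, is no subunit gene and rose from 20.9 ± 0.84 to 27.4 ± 1.05 TPM (0.38, limma adjusted p = 0.00379).

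Among the alternative activators and the inhibitor, PSME1 alone passed. PSME1, which forms the interferon-inducible activator ring with PSME2, was at 293.55, 271.26 and 258.62 TPM in siNC and at 370.76, 339.23 and 297.83 TPM in siAHCYL1 (log2 fold change 0.29, SE 0.086, limma adjusted p = 0.0201). Its call was lost under 6 of the 15 settings, the one with the length and GC trend removed among them (adjusted p = 0.0879). Its partner PSME2 was at 274 ± 14.7 and 274.4 ± 10.8 TPM (SD, n = 3). PSME3, the activator of the nucleus (-0.10), PSME4 (-0.16) and the inhibitor PSMF1 (0.04) did not pass.

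Replicate 1 often held the highest value of its group. In siNC this was so for 31 of the 46 tested genes, against 44.9% of all genes tested. In siAHCYL1 it was so for 27 of the 46, about the share over all genes (58.0%). In both groups at once it was so for 26 of the 46, against 33.5% of all genes tested. The chosen transcripts of these 46 had a median length of 1579.5 bases, against 3118 over all tested genes. Transcripts under 1000 bases held 20.03%, 21.6% and 23.2% of TPM in siNC. The siAHCYL1 libraries held 17.7%, 20.6% and 21.6%, so replicate 1 had the lowest share both times. With replicate 1 of both groups left out, 22 of the proteasome genes changed, and with the trend over length and GC removed 21 did. The median coefficient of variation over the control libraries was 5.71% for the proteasome genes and 8.504% for all genes tested.

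The genes around the proteasome also went both ways, on lists chosen for their known roles. Over all genes tested, 30.4% rose and 21.2% fell, so calls in both directions are the background for these lists. Of 15 genes that process, degrade or partner NFE2L1, 4 rose and 5 fell (median log2 fold change 0.06, the same as all genes). MAFK, a small MAF protein that can pair with NFE2L1 on DNA, rose from 82.4 ± 12.4 to 167 ± 19.3 TPM (1.01), and OGT, the O-GlcNAc transferase, from 43.5 ± 1.02 to 70.7 ± 4.93 TPM (0.69). MAFF, another small MAF, fell from 67.0 ± 4.50 to 51.2 ± 1.77 TPM (-0.38). NFE2L2, the related factor NRF2, fell from 176 ± 21.3 to 116 ± 18.7 TPM (-0.60). Adjusted p (limma) was at most 0.00258 for these 4. DDI2, the protease that cuts NFE2L1, and NGLY1, which removes its sugars, did not pass (0.06 each). Of 12 genes for VCP, the ATPase that pulls proteins from the ER membrane, and its cofactors, 6 rose and 3 fell (median 0.16). UBXN4 rose from 84.9 ± 6.41 to 140.8 ± 13.2 TPM (0.72), NPLOC4 rose (0.30), and FAF2 (-0.43) and UBXN7 (-0.48) fell (limma adjusted p at most 0.00299 for each).

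Of 16 genes for factors bound to the proteasome, deubiquitinases and ubiquitin shuttles, 5 rose and 3 fell (median log2 fold change 0.01). ZFAND2A rose from 17.7 ± 3.36 to 30.9 ± 1.84 TPM (0.78), and KIAA0368, which binds the 26S particle, from 42.0 ± 3.84 to 63.2 ± 7.33 TPM (0.58, SD, n = 3). For both, and for PAAF1, limma's adjusted p was at most 0.00379. Of 5 tested genes for ubiquitin and its activating enzymes, 0 rose and 2 fell, among them RPS27A (-0.27, limma adjusted p = 0.00382), which encodes ubiquitin fused to a ribosomal protein. UBB, a ubiquitin gene that cells use widely, was listed at 0 to 0.32 TPM, so its values in this table were not used.

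Of 9 genes of the COP9 signalosome, a complex related in structure to the lid, 1 rose and 3 fell (median log2 fold change -0.16). GPS1 (-0.49), COPS6 (-0.27) and COPS5 (-0.22) fell and COPS7A rose (0.38). Of 10 genes of interferon-gamma signalling, the pathway that induces PSMB10, PSME1 and PSME2, 2 rose and 4 fell (median -0.05). IRF1 fell from 16.7 ± 2.60 to 8.67 ± 0.74 TPM (-0.87), while STAT2 (0.74) and IFNGR2 (0.37) rose. Adjusted p (limma) was at most 0.0183 for each gene named from these lists.

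NFE2L1 is known to bind antioxidant response elements, whose core is TGACNNNGC, and NF-Y binds CCAAT. RefSeq promoter windows (GRCh38.p14, 250 bases before to 50 after a start) were found for 42 of the 48 genes, 51 windows in all, and both motifs were searched on both strands. TGACNNNGC was in 27.5% of these windows and in 13.3% of the 35116 windows of all genes, and CCAAT was in 39.2% and 34.6%. Counts by gene take a match in any window of a gene, and no such share over all genes was computed. By gene, TGACNNNGC was found for 2 of the 8 risen genes with a window (PSMC5 and PSME1), 2 of the 8 fallen ones (PSMB3 and PSMD3) and 10 of the 24 that did not pass. Windows of these 4 are shown as the ones where gene changes and the motif meet, and 1 of the 2 windows of NFE2L1 because it holds 5 CCAAT matches. Neither window of NFE2L1 holds TGACNNNGC, and the other has 0 CCAAT. The other window of PSMC5, chr17:63827181-63827480, has 1 CCAAT and no TGACNNNGC. Its start is the RefSeq start of the gene (63827431), and the window shown for PSMC5 lies wholly downstream of that position. Capitals mark both motifs, on either strand, and they do not overlap each other in these windows. In PSMB3 (chr17:38752491-38752790, plus strand) TGACNNNGC begins 104 bases before the start. PSMD3 (chr17:39980557-39980856, plus strand) has it 37 bases before and 33 after the start. In PSMC5 (chr17:63827471-63827770, plus strand) and PSME1 (chr14:24135944-24136243, plus strand) it begins 57 and 86 bases before the start used for that window. The window shown for NFE2L1 is chr17:48048109-48048408, plus strand.
PSMB3: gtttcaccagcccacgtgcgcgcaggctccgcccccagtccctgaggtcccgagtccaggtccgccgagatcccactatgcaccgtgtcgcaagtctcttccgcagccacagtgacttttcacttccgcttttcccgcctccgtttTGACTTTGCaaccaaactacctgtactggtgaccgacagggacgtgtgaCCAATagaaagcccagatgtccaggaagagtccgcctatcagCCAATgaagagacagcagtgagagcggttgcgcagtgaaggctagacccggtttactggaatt
PSMD3: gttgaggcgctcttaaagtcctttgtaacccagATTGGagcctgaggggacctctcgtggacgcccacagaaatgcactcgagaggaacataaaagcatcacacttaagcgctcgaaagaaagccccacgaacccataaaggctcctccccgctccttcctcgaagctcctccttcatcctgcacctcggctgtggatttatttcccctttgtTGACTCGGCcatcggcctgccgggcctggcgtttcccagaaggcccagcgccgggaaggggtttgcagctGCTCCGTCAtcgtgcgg
PSMC5: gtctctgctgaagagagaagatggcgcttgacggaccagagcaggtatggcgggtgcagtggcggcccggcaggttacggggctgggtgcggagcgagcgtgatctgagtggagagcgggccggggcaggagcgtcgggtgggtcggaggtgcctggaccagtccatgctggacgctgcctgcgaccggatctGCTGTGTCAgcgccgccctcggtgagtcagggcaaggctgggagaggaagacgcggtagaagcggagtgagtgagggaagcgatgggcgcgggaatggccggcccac
PSME1: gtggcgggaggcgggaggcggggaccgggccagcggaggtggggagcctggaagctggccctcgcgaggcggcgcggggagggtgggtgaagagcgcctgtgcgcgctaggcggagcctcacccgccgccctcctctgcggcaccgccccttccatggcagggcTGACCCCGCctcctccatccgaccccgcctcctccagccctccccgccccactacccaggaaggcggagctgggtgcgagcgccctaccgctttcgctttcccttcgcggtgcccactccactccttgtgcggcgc
NFE2L1: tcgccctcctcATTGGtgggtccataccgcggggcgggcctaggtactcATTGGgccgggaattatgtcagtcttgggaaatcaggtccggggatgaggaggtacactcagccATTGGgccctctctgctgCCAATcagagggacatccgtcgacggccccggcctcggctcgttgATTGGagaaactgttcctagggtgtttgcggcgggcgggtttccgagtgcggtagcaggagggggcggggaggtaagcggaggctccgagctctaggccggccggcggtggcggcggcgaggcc
The match count for NFE2L1 includes both orientations, and a match is a description of the sequence, not a binding site. PSMA7, PSMB1, PSMB6, PSMB7, PSMD4 and PSMG3 had no window matched.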

How the data were processed

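RNA was sequenced from 6 HMCB libraries, 3 per group. The authors deposited 1 table of TPM; STAR, RSEM and GRCh38 are named per the submitters' processing notes, without versions; the annotation is not given in the sources used here. Libraries were non-directional per the labels' protocols. Control columns carry the prefix nc; the prefix si was assigned to siAHCYL1, the only other group. TPM keeps no depth, so the precision that depth gives could not be computed.

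From the deposited TPM, log2(TPM + 1) entered limma 3.58.1 under R 4.3.3 (moderated test with intensity trend, two-sided, group as the only term, Benjamini-Hochberg adjustment over 13266 genes with at least 1 TPM in 3 libraries; called at adjusted p under 0.05). The test was checked on simulated data. Fold changes on this scale understate changes of low genes. Members and lists were chosen with earlier results of these data known. Values in each library are given for NFE2L1, POMP, PSMB5, PSMB6, PSMB7, PSMB10, untested members and up to 3 called members per role and direction, and from each related list up to 4 called genes by smallest adjusted p; some of these are not reported here. Lists were described by counts and medians, without a test. Alternatives are a pseudocount of 0.1, no filter, a 5 TPM filter, quantile normalization, median-of-ratios scaling, a replicate block, no trend with robust moderation, each library left out, replicate 1 of both groups left out, and removal of the trend over transcript length and GC. Lengths, exons and 3′ UTRs come from GENCODE v29 (principal, then longest transcript).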

Additional observations from a re-analysis of the deposited data

How the results depend on the processing

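Of 690 refits of single proteasome genes (46 genes, 15 settings), 622 kept their direction and side of the threshold or changed sign without passing in either fit (33 of these), 36 lost a call, 32 gained one and 0 reversed a call. Of the 19 called genes, 9 passed in every setting, and of the 27 others 12 passed in at least 1. The count of lower proteasome genes was 10 and became 16 with median-of-ratios scaling, 18 with quantile normalization and 16 with the replicate block, under which 28 changed in all (12 higher). These scalings set the median over all genes, 0.06 in log2 fold change, to 0.00 and -0.01. Over all genes, higher calls made up 58.9% of calls, 50.2% and 48.1% under these scalings. With 1 library left out, the count of changed proteasome genes ranged from 12 to 19, that of higher genes from 5 to 9 and that of lower genes from 7 to 11. For these changes of call the cause was not tested. The fits with 1 library left out also had fewer samples. The count over all genes (6844) ranged from 5566 to 7919, and AHCYL1 (-3.54 to -3.38) passed in each fit. Replicate numbers are not shown to pair the samples: same-numbered libraries had deviations that correlated at 0.233, 0.00092 and 0.154, and for some libraries the closest match had another number. TPM keeps no depth, so no limit set by depth could be given.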
